A study of Homo sapiens with 12 samples.

Results

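The 6 untreated libraries of the series, 3 of H460 and 3 of A549, were compared over all genes to describe how these human non-small cell lung cancer lines differ before any drug is given. They are 6 of 12 libraries. The other 6 are 3 of each line after 48 h with 10 µM isovalerylspiramycin I (ISP-I), a component purified from the macrolide antibiotic carrimycin, and they are used below only to see which line differences recur. Both lines carry the genotype label WT, although the study states that both have homozygous mutations that inactivate KEAP1. The labels call the untreated cells non-treated, while the methods of the study describe DMSO as the control in its cell assays. Each line is a single culture model of one tumor, so what follows compares these cell lines and not tumor types. Nothing in the labels says that libraries of a line came from separate cultures, so p-values measure the spread between these samples, which may be technical. Libraries were made from extracted total RNA and sequenced. The level of each gene was given in FPKM (reads scaled by gene length and by the total reads of the library).

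A549 is an adherent line from a lung adenocarcinoma and is widely used as a model of alveolar type II cells, the surfactant-producing cells of the lung. H460 is from a large cell carcinoma, a class of lung cancer defined by the lack of glandular, squamous or neuroendocrine features. A carcinoma cell holds part of its identity in simple keratins and cell junctions, in the transcription factors and secreted products of its lineage, and in detoxifying enzymes, many of them under the stress-response factor NRF2.

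Depth was even, at 14225849 to 15188619 reads on genes per untreated library, and mitochondrial mRNAs took 3.77% to 4.82% of reads. Library 3 of A549 stood apart from the other 2 libraries of its line. Over genes, the chi-square per degree of freedom of counts was 26.7 and 30.8 between it and the others, 3.30 between those 2, and 12.1 to 13.7 among the H460 libraries. The summed level of the 77 cytosolic ribosomal protein genes was 17720 FPKM in it against 13989 and 12863 FPKM in the other A549 libraries, and 15304 to 16565 FPKM in H460. Its part in the results was measured by leaving it out. The 16 listed blood cell markers, which would show admixed cells, summed to 5.48 to 6.89 FPKM in the H460 libraries and 2.11 to 3.04 FPKM in A549. CD14, with means of 5.92 and 1.07 FPKM, and ITGAM, with 0.0309 and 1.23 FPKM, were called in opposite directions. The other 14 were low, with PTPRC, which defines leukocytes, at 0 and 0.00767 FPKM, and 5 of them (CD2, CD3D, CD3E, CD68 and MS4A1) had no read in the 6 libraries.

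Of 13532 genes whose mean over the libraries reached 0.1 FPKM, 763 (5.64%) were called higher in H460 and 1188 (8.78%) higher in A549. A call required a log2 difference beyond 1 and an adjusted p under 0.05, where p-values came from limma, fitted to log2(FPKM + 1), and were adjusted over all tested genes by the Benjamini-Hochberg method. Without A549 library 3 the counts were 792 and 1277. The value ranges of the lines did not overlap for 8769 genes (64.8%), and 8145 passed the adjusted p at any size. Most differences were small, since 8417 genes (62.2%) lay within 0.5 of equality on the log2 scale, and the median was -0.03. Beyond 16-fold on that scale, 31 genes were higher in H460 and 52 higher in A549. Differences below are H460 minus A549, on the log2(FPKM + 1) scale. They understate the change of low genes, and for a gene with few or no reads in one line their size depends on the pseudocount of 1 FPKM. The ± after a log2 difference is limma's SE from 3 libraries per line. It shrinks the spread of each gene toward a trend over all genes, so it can exceed the scatter of closely matched libraries.

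**Figure D1:**
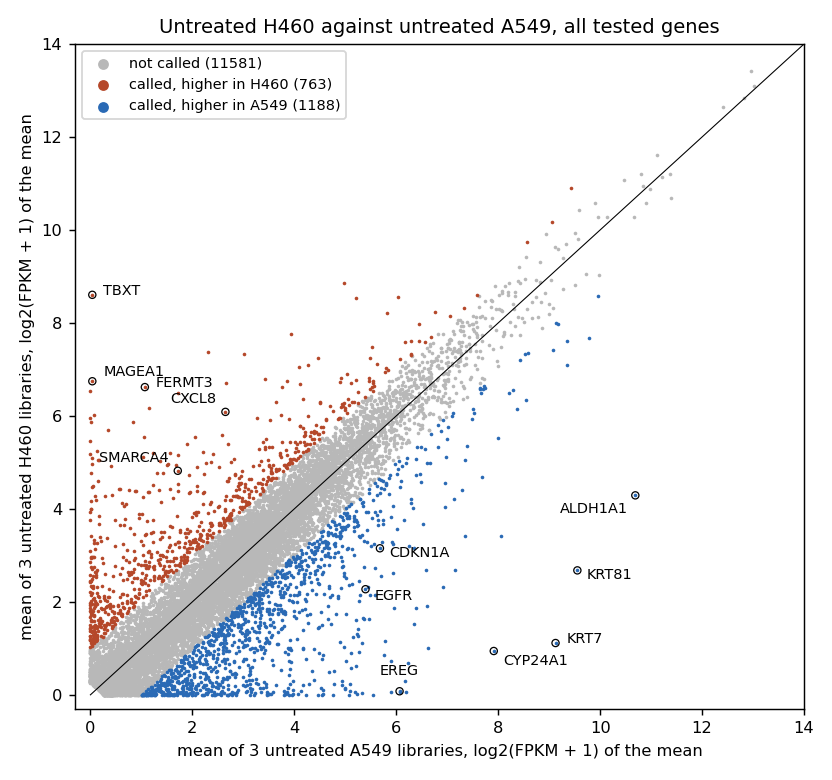
Mean level of each of the 13532 tested genes in the 3 untreated A549 libraries (x axis) and the 3 untreated H460 libraries (y axis), as log2 of mean FPKM + 1, with 763 genes called higher in H460 in red and 1188 called higher in A549 in blue. Most genes lie along the line of equality, with TBXT far above it and KRT7 far below.

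The difference of greatest size toward A549 was in KRT7 (ENSG00000135480, chr12:52232520-52252186), a simple keratin of glandular and lung epithelium. It stood at 512, 586 and 574 FPKM in A549 and at 0.521, 0.675 and 2.30 FPKM in H460, a 478-fold ratio of means with a log2 difference of -8.10 ± 0.26 (adjusted p = 3.57e-08). The neighbouring hair-type keratin KRT81 (chr12:52285913-52291534) was at 666, 617 and 968 FPKM in A549 and 5.55, 5.73 and 4.91 FPKM in H460, with a difference of -6.85 ± 0.16. Both genes sat far above H460 in all A549 libraries, although KRT81 was highest in library 3. In bulk RNA, fewer cells with a transcript and less of it per cell cannot be told apart.

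ALDH1A1 (chr9:72900671-73080442), a retinaldehyde dehydrogenase, was at 1794, 1791 and 1368 FPKM in A549 and 20.7, 16.1 and 18.98 FPKM in H460. The ratio of means was 88.9-fold and the log2 difference -6.39 ± 0.14 (adjusted p = 6.10e-09). CYP24A1 (chr20:54153446-54173986), which breaks down active vitamin D, was at 239, 248 and 233 FPKM against 0.732, 0.958 and 1.08 FPKM, a difference of -6.97 ± 0.09. For both enzymes the lowest A549 library exceeded the highest H460 library many times over. The other 6 genes of the leading 10 toward A549 were WNT7B, a secreted Wnt ligand, CEACAM6, a cell-surface adhesion glycoprotein, EREG, an EGF receptor ligand, ITGB4, the integrin chain of hemidesmosomes, SPINT2, an inhibitor of membrane serine proteases, and EHD2, a membrane-shaping ATPase of caveolae. Their means were 58.5 to 97.2 FPKM in A549 and at most 1.01 FPKM in H460, and their differences ran from -6.14 to -5.61.

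Toward H460 the leading gene was TBXT (ENSG00000164458, chr6:166157656-166168700), brachyury, the T-box transcription factor of the embryonic mesoderm and notochord. H460 held 370.4, 387 and 408 FPKM and A549 0, 0.0523 and 0.0260 FPKM, the latter from 3 reads in all. The log2 difference was 8.57 ± 0.08 (adjusted p = 2.47e-10). MAGEA1 and MAGEB2, X-linked antigens otherwise expressed mainly in testis, followed: MAGEA1 (chrX:153179284-153183880) was at 112, 112 and 94.1 FPKM in H460 and 0, 0.0398 and 0.0396 FPKM in A549, and MAGEB2 (chrX:30215563-30220089) at 93.9, 97.8 and 83.2 FPKM in H460 with no read in A549. All 3 were present in every H460 library and at or near 0 in every A549 library.

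SERPINB2 (chr18:63871692-63903888), the plasminogen activator inhibitor type PAI-2, was at 49.4, 44.8 and 87.8 FPKM in H460 and had no read in A549. Library 3 of H460 was well above the others, which gave the largest SE of the 20 leading genes other than KRT7 (5.88 ± 0.22). The other 6 toward H460 were EPGN, an EGF receptor ligand, EPB41L3, a membrane-cytoskeleton linker, FERMT3, the kindlin best known in blood cells, COL8A1, a short-chain collagen, KCNE4, a potassium channel subunit, and GSTM1, a glutathione transferase. Their means in H460 were 35.1 to 97.3 FPKM, and no A549 mean exceeded 1.10 FPKM.

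**Figure D2:**
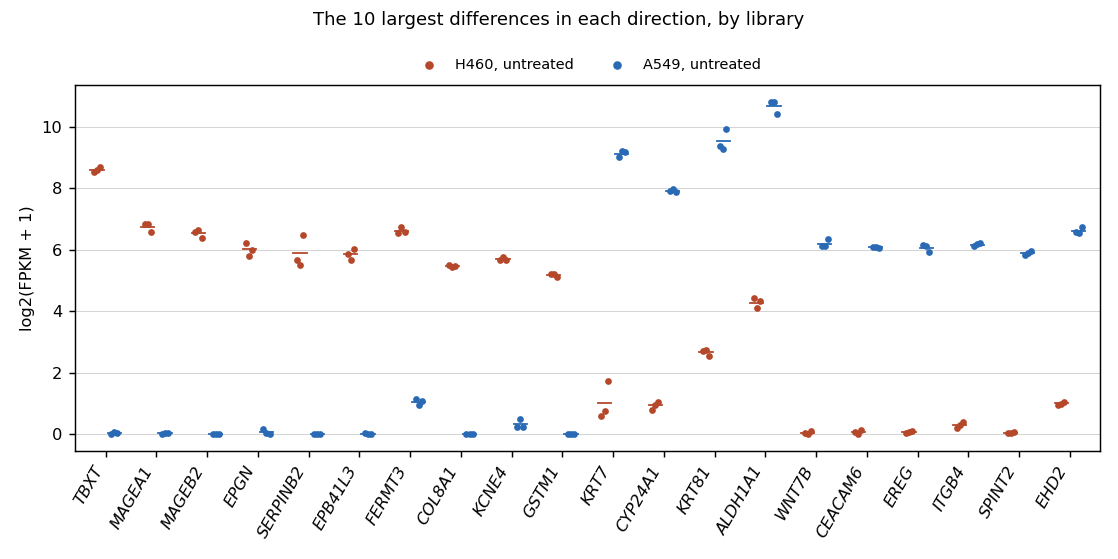
Level of the 10 genes with the largest called difference in each direction, as log2(FPKM + 1), in each of the 3 untreated libraries of H460 (red points) and A549 (blue points), with a bar at the mean of the 3. The points of a line lie close together beside the gap between lines, and SERPINB2 and KRT7 in H460 have the widest spread.

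The 250 bases before the RefSeq transcription start (GRCh38.p14) are shown for 4 of these genes, a pair from each line, because each gene is at or near 0 in one line and their CpG content differs widely. CpG sites are in capitals and each sequence runs 5′ to 3′ on the strand of the gene. TBXT has 23 CpG sites (chr6:166168656-166168905, minus strand), MAGEB2 15 (chrX:30215313-30215562, plus strand), EREG 11 (chr4:74364895-74365144, plus strand) and CEACAM6 5 (chr19:41755280-41755529, plus strand).
TBXT: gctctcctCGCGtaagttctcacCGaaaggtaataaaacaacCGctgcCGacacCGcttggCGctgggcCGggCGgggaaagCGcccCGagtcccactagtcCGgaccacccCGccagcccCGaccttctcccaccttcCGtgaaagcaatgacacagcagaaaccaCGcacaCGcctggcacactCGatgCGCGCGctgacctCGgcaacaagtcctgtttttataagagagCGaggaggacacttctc
MAGEB2: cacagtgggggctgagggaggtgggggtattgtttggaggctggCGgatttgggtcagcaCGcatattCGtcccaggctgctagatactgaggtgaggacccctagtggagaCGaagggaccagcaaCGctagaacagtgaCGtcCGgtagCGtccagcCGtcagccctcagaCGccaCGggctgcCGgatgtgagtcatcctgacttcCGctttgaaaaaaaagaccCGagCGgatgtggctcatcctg
EREG: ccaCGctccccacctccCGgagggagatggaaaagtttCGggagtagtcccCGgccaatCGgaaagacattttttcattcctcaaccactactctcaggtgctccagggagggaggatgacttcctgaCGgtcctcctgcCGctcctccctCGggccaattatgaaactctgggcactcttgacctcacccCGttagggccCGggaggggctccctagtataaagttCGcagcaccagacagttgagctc
CEACAM6: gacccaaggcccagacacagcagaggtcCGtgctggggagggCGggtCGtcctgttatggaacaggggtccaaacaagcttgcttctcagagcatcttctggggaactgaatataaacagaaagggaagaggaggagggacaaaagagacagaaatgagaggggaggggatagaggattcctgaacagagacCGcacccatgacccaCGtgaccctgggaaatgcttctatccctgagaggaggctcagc

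CpG content was then read for all genes, as observed over expected CpG in the 300 bases from 250 before to 50 after the start of the canonical transcript (GENCODE v44, hg38). A start was found for 99.9% of the 13532 tested genes, whose median ratio was 0.85, with 83.9% at 0.6 or above. Among genes called higher in H460 the median was 0.79 and 74.4% reached 0.6, and among those higher in A549 it was 0.82 with 79.0%. Genes read in one line alone had lower ratios. The 27 with a mean of at least 1 FPKM in H460 and no read in A549 had a median of 0.65 with 59.3% at 0.6 or above, and the 55 of the opposite kind 0.63 with 52.7%. These shares are descriptions of the start windows with no test.

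At a mean of 5 FPKM or more, 8 genes were read only in H460 and 15 only in A549. A lower bound on the fold was set by 3 reads over the 3 libraries of the silent line. In H460 the highest were MAGEB2 (at least 2144-fold higher), SERPINB2 (at least 2420-fold), COL8A1 (at least 5919-fold), GSTM1 (at least 1285-fold) and PRMT6, an arginine methyltransferase of histone H3, at 14.3, 14.3 and 14.4 FPKM (at least 903-fold). In A549 they were PPP1R14A, GPRIN2, SFRP1, TM4SF4 and MAGEA6. SFRP1 (chr8:41261962-41309473), a secreted Wnt antagonist, was at 26.6, 26.5 and 24.95 FPKM (at least 1827-fold higher) and TM4SF4 (chr3:149474697-149503394), a tetraspan membrane protein of liver and gut, at 22.4, 22.8 and 22.2 FPKM (at least 509-fold higher). PPP1R14A (chr19:38251237-38256532), an inhibitor of myosin phosphatase at 42.5, 34.6 and 59.8 FPKM, lies on the opposite strand inside SPINT2, which was also higher in A549, and the strand setting of the counting is not given in the sources used here, so reads of the pair cannot be told apart.

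Counts called in each gene list below stand beside all tested genes, of which 5.64% were called higher in H460 and 8.78% in A549. Epithelial genes were called higher in A549 far more often than in H460. Of 32 tested simple keratins and junction genes, 16 were higher in A549, 1 (CLDN7, or 2 genes without A549 library 3) was higher in H460 and 15 were not called, with a median of -1.13 beside -0.03 for all genes. The summed level was 2463 to 3166 FPKM in the A549 libraries and 508 to 580 FPKM in H460. KRT8 and KRT18, the paired keratins of simple epithelium, were present in both lines. KRT8 was at 568, 634 and 748 FPKM in A549 and 184, 215 and 184 FPKM in H460 (-1.73 ± 0.13), and KRT18 had means of 331 and 70.3 FPKM. KRT19 did not follow them, with 122 FPKM in H460 and 66.1 FPKM in A549 (difference 0.88, not called). Among the junction genes, CDH1, E-cadherin, had no read in H460 and 4.90 ± 0.245 FPKM in A549, DSP, desmoplakin, had means of 0.152 and 16.9 FPKM, and CLDN2, a pore-forming claudin, 0.693, 0.676 and 0.590 FPKM in H460 and 29.2, 30.8 and 34.1 FPKM in A549 (-4.29 ± 0.09).

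Airway secretory and mucin genes had 10 of 15 tested members higher in A549 and 1 higher in H460 (median -1.18). The gel-forming mucins MUC5AC and MUC5B were at 15.9, 15.7 and 12.3 FPKM and at 10.6, 11.8 and 8.84 FPKM in A549, in that order, and at most 0.023 FPKM in any H460 library. FOXA2, a pioneer factor of lung and liver endoderm, was at 11.6, 15.4 and 11.8 FPKM in A549 with no read in H460, while its relative FOXA1 was the 1 member higher in H460, with means of 16.1 and 3.60 FPKM. The anterior gradient chaperone AGR2 was the highest of the list in H460 and came just under the call (82.9, 68.7 and 85.7 FPKM in H460, 40.1, 38.5 and 38.1 FPKM in A549, difference 0.998, or 1.02 without A549 library 1 and 1.10 without H460 library 2). FOXA1 and AGR2 were thus above A549 in every H460 library, against the direction of the mucins.

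Most of the listed alveolar type II genes were at or near 0 in both lines. SFTPC, SFTPA2 and SLC34A2 had no read in the 6 libraries, SFTPB had means of 0.0493 and 0.0780 FPKM, and NKX2-1, the master factor of lung epithelium, 0.134 and 0 FPKM. Only 6 of the 16 listed genes could be tested, of which ABCA3, CTSH and FGFR2 were higher in A549. LPCAT1 and ETV5, the highest of the list, were present in both lines and not called. LPCAT1 had means of 35.9 FPKM in H460 and 44.4 FPKM in A549 (-0.30), and ETV5 10.4 and 8.71 FPKM (0.23). ABCA3, the lipid transporter of lamellar bodies, was at 13.2, 13.8 and 15.5 FPKM in A549 and 1.09, 1.18 and 1.53 FPKM in H460 (-2.74 ± 0.11).

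Liver and gut lineage genes had 7 of 14 tested members higher in A549 and 1 higher in H460 (median -0.98). The nuclear receptor HNF4A had a mean of 2.11 FPKM in A549 and 0.0183 FPKM in H460. CPS1, the mitochondrial carbamoyl phosphate synthetase of the urea cycle, went the other way at 96.2, 87.4 and 83.3 FPKM in H460 and 2.32, 2.46 and 2.10 FPKM in A549 (4.77 ± 0.09, adjusted p = 3.65e-09). Its ranges were far apart.

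Mesenchymal genes split between the lines, with 6 of 31 tested members higher in H460 and 8 higher in A549 (median -0.57). VIM, vimentin, did not differ by the test, at 72.96 ± 1.90 FPKM in H460 and 68.6 ± 11.9 FPKM in A549 (SD, difference 0.10, adjusted p = 0.498). H460 was higher in FN1, fibronectin (means 132 and 15.96 FPKM), CDH11, a mesenchymal cadherin (3.21 ± 0.10), COL3A1, a fibrillar collagen (3.13 ± 0.09), and the repressor SNAI1 (2.53). A549 was higher in TPM2, a tropomyosin (-4.82 ± 0.13), COL5A1 (-4.27 ± 0.09), the receptor kinase AXL (-3.93 ± 0.10), TWIST1 (-1.63) and TWIST2 (-2.27). S100A4, a calcium-binding protein, was at 304, 269 and 461 FPKM in A549 and 151, 161 and 124 FPKM in H460 (-1.21), and its difference was -0.98 without A549 library 3, short of the call.

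Among integrins and laminins, 6 of 27 were higher in A549 and 2 in H460 (median -0.40), beside 8.78% and 5.64% of all genes. The count toward H460 is near that share. ITGA3 and ITGB1, which pair as a laminin receptor, were both higher in A549. ITGA3 was at 117, 121 and 124 FPKM in A549 and 3.62, 4.16 and 4.13 FPKM in H460 (-4.61 ± 0.08). ITGB1 was at 179, 184 and 124 FPKM in A549 and 36.4, 28.6 and 31.4 FPKM in H460 (-2.29 ± 0.16). LAMA1, an early embryonic laminin alpha chain, was higher in H460. It was at 25.9, 26.6 and 26.3 FPKM in H460 with 3 reads in all of A549 (4.76 ± 0.08).

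Receptor kinases and growth factors were more often higher in A549: 10 of 29 kinases (2 in H460, median -0.33) and 20 of 48 growth factors and binding proteins (6 in H460, median -0.48). EGFR (chr7:55019017-55211628), the EGF receptor, was at 42.8, 44.3 and 36.3 FPKM in A549 and 3.61, 3.67 and 4.21 FPKM in H460 (-3.12 ± 0.10, adjusted p = 4.60e-08). Its ligands lay on both sides. AREG, amphiregulin, was at 54.2, 52.7 and 53.2 FPKM in A549 and 0.635, 0.962 and 0.818 FPKM in H460 (-4.92 ± 0.09), EREG at 70.1, 68.2 and 59.6 against 0.0365, 0.0461 and 0.0822 FPKM, and TGFA had means of 9.59 and 0.206 FPKM. EPGN, in the same gene cluster on chromosome 4 (chr4:74308470-74316789), was at 74.2, 54.9 and 63.03 FPKM in H460 and 0.128, 0.0206 and 0 FPKM in A549 (5.95 ± 0.12). Thus EGFR, AREG, EREG and TGFA were higher in A549 and EPGN and EGF (means 1.33 and 0.0544 FPKM) in H460.

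MET, the hepatocyte growth factor receptor, was at 62.9, 69.1 and 47.5 FPKM in A549 and 16.8, 13.2 and 17.3 FPKM in H460 (-1.85 ± 0.15), and FGFR1 (-2.39 ± 0.08), EPHA2 (-1.90 ± 0.10) and NTRK3 (-2.86 ± 0.08) were higher in A549 too. EPHA3 and EPHA5, ephrin receptors, were the 2 kinases higher in H460 (1.43 and 1.60). IGFBP4, which binds insulin-like growth factors, had the highest level of the growth factor list, at 818, 850.1 and 954 FPKM in A549 and 186, 219 and 209 FPKM in H460 (-2.09 ± 0.11). INHBB, an activin subunit, was at 31.2, 28.8 and 32.9 FPKM in A549 and at most 0.168 FPKM in H460.

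NRF2 targets and aldo-keto reductases summed to 8962 to 11252 FPKM in A549 and 10104 to 11485 FPKM in H460. Most of each sum was 1 gene, FTL, at 4758 to 6661 FPKM in A549 and 5933 to 7005 FPKM in H460. All 38 genes of the list were tested, of which 7 were higher in H460 and 6 in A549 (median 0.18). NQO1, a quinone reductase, had means of 465 and 343 FPKM (difference 0.44), and the ferritin light chain FTL 6386 and 5435 FPKM (0.25), neither called. Individual enzymes nevertheless differed. GPX2, a glutathione peroxidase of epithelium, was at 69.03, 69.4 and 83.04 FPKM in A549 and 0.649, 0.395 and 0.761 FPKM in H460 (-5.55 ± 0.12). AKR1C1 was at 143, 138 and 125 FPKM in H460 and 17.5, 17.97 and 19.4 FPKM in A549 (2.82 ± 0.09) while AKR1C2 had means of 88.9 and 203 FPKM (-1.18). These paralogs are near-identical, and their split depends on how reads that fit both were counted, as it does for AKR1B10 and AKR1B15 and for MAGEA3 and MAGEA6.

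Of 16 aldehyde dehydrogenases, 5 were higher in A549 and 0 in H460 (median -0.29). Besides ALDH1A1 these were ALDH1A3, ALDH2, ALDH3B1 and ALDH4A1, and ALDH3A1 was not called at 316, 357 and 343 FPKM in H460 and 478, 496 and 561 FPKM in A549. Xenobiotic enzymes and drug transporters had 6 of 30 higher in each line. The mu-class glutathione transferases GSTM1, GSTM2, GSTM3 and GSTM4 were all higher in H460, by 5.17, 1.20, 3.21 and 2.27. GSTM3 was at 21.7, 20.8 and 16.1 FPKM in H460 and 1.49, 1.05 and 1.10 FPKM in A549, and GSTM1 (chr1:109687814-109709039) at 35.8, 35.9 and 33.7 FPKM in H460 with no read in A549. GSTP1, the pi-class enzyme, was high in both lines and did not pass the test (-0.33 ± 0.16, adjusted p = 0.097).

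Of 40 interferon-stimulated genes, 8 were higher in H460 and 0 in A549 (median 0.18). IFITM3, a membrane protein that blocks virus entry, was at 152, 166 and 160.2 FPKM in H460 and 6.11, 6.44 and 8.71 FPKM in A549 (4.32 ± 0.12). IFI44 and the DNA sensor IFI16 were at 14.1, 10.8 and 10.7 and 13.7, 8.47 and 12.4 FPKM in H460, and below 1 FPKM in every A549 library. OAS3, an antiviral oligoadenylate synthetase, was not called (-0.00 ± 0.08). Of 19 genes of MHC class I presentation, 3 were higher in H460 (median 0.51), namely HLA-B, the proteasome subunit PSMB8 and the transactivator NLRC5. HLA-B was at 5.30, 5.26 and 5.01 FPKM in H460 and 0.536, 0.632 and 1.03 FPKM in A549 (1.85 ± 0.12). HLA genes are polymorphic, and how well the reads of each line fit the reference allele was not tested.

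Cytokine and NF-kB genes had 8 of 27 higher in H460 and 6 in A549 (median 0.09). CXCL1, CXCL2, CXCL3, CXCL5 and CXCL8, neutrophil-attracting chemokines of the cluster on chromosome 4, were all higher in H460. CXCL8 was at 74.8, 63.96 and 62.1 FPKM in H460 and 5.84, 5.32 and 4.66 FPKM in A549 (3.44 ± 0.11), and CXCL5, the highest, at 221, 193 and 174 against 89.8, 83.03 and 86.8 FPKM (1.16 ± 0.11). TNFAIP3, an NF-kB feedback inhibitor, was at 19.5, 19.6 and 22.4 FPKM in H460 and 2.08, 2.02 and 1.71 FPKM in A549. A549 was higher in IL18 (-3.58 ± 0.08), IL11 (-3.48 ± 0.10), BIRC3 (-2.85) and CCL2 (-2.42). Of the blood cell markers, CD14 was at 6.20, 6.43 and 5.13 FPKM in H460 and 0.725, 1.32 and 1.15 FPKM in A549.

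Neuronal and neuroendocrine genes had 5 of 19 tested members higher in H460 and 3 in A549 (median 0.20), or 5 in each line without A549 library 3. NEFL, the light neurofilament, was at 71.5, 68.9 and 73.2 FPKM in H460 and 0.874, 1.35 and 1.39 FPKM in A549 (5.04 ± 0.11), whereas INA, another neurofilament protein, was at 19.4, 17.8 and 15.9 FPKM in A549 with no read in H460. CPLX2, a regulator of vesicle release, was at 126, 145 and 155 FPKM in A549 and 5.66, 5.63 and 5.09 FPKM in H460. CHGA, chromogranin A, had means of 4.88 and 0.355 FPKM. Of 9 tested basal and squamous markers, SERPINB5 (maspin) was higher in H460 at 23.9, 20.97 and 19.5 FPKM against at most 0.0564 FPKM, and SOX2 and KRT16 were higher in A549.

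Cancer-testis antigens were sparse, since 30 of 50 had no read in the 6 libraries and 7 could be tested. The lines used different members. H460 was higher in MAGEA1 and MAGEB2, and A549 in MAGEA3, MAGEA6, PRAME and SPANXB1. MAGEA6 was at 18.8, 20.2 and 24.1 FPKM in A549 with no read in H460, and PRAME, present in both, had means of 41.4 and 14.4 FPKM. HOX genes had 3 of 31 higher in each line (2 and 4 without A549 library 3), close to the 5.64% and 8.78% of all genes, with a median of -0.14 that was 0.00 after quantile normalization. HOXA9, HOXB6 and HOXD13 were higher in H460 and HOXB3, HOXB8 and HOXC4 in A549, and without A549 library 3 the HOXB6 difference fell from 1.09 to 0.96, short of the call.

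Of 34 tested p53 targets, 14 were higher in A549 and 0 in H460, and 28 had the lower mean in H460 (median -0.73). CDKN1A (chr6:36676460-36687337), the cell cycle inhibitor p21, was at 45.7, 48.4 and 56.7 FPKM in A549 and 7.10, 8.22 and 8.36 FPKM in H460 (-2.52 ± 0.11, adjusted p = 2.04e-07). PHLDA3, an inhibitor of AKT, was at 29.2, 27.8 and 36.7 FPKM in A549 and 2.06, 2.25 and 2.67 FPKM in H460 (-3.27 ± 0.12), and EDA2R, a death-domain receptor, at 7.48, 8.28 and 6.50 against 0.173, 0.109 and 0.186 FPKM. The ranges of these 3 genes did not overlap. MDM2 was not called, with means of 6.09 and 4.08 FPKM in A549 and H460 (-0.47). GADD45A was called at -1.05 and not without A549 library 1 (-0.96). With ISP-I, 20 of 34 were higher in A549 and 1 in H460 (median -1.13), where 16% and 7.67% of all genes were called in those directions and their median was -0.20.

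Of 55 replication and mitosis genes, 2 were called higher in each line (median 0.11), beside 5.64% and 8.78% of all genes. With A549 library 3 left out, 2 were called toward H460 and 6 toward A549. All genes then had 792 and 1277 calls of 13524 tested, so the low count toward A549 depended on that library. Summed levels were 2447 to 2584 FPKM in H460 and 2437 to 2526 FPKM in A549. CDC25A, a phosphatase that drives entry into S phase, was at 22.1, 25.2 and 24.8 FPKM in H460 and 7.97, 7.12 and 7.86 FPKM in A549 (1.53 ± 0.09). ORC1 was called higher in H460 at 1.07 and not without A549 library 1 (0.96). TOP2A, a topoisomerase of dividing cells, was at 154, 157 and 68.9 FPKM in A549 and 56.4, 32.3 and 44.3 FPKM in H460 (-1.43 ± 0.32), with A549 library 3 the low one. Ribosomal protein genes had 2 of 77 called in each direction. RPS28, on chromosome 19, and RPL9 were higher in H460 (2.89 and 1.58), and RPS16 and RPS19, also on chromosome 19, higher in A549. RPS16 fell short without A549 library 3 (-0.96), and reads of these genes may be shared with pseudogene copies.

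Of the 17 genes of the PI3K/AKT pathway and its downstream targets that the study followed, 1 was higher in H460 and 4 in A549 (median -0.45). The list was chosen by the study on cells of these lines. FOXO1, a transcription factor restrained by AKT, was at 3.09, 3.18 and 2.57 FPKM in H460 and 0.708, 0.662 and 0.534 FPKM in A549 (1.27 ± 0.10), whereas FOXO3 was at 1.79, 1.67 and 2.06 against 3.42, 3.84 and 3.13 FPKM (-0.65). The 4 toward A549 were CDKN1A, GADD45A and the apoptosis genes BAX and BBC3, which are p53 targets as well. AKT1 (0.65) and MTOR (0.49) were higher and PIK3CB (-0.45) lower in H460 by less than the size a call requires, each with an adjusted p under 0.05. PIK3CA was low in both lines, at most 0.892 FPKM in any library.

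Of 29 tested genes that are recurrently altered in lung cancer, 3 were called, 2 higher in H460 and 1 in A549, beside 5.64% and 8.78% of all genes. SMARCA4 (chr19:10960932-11079426), the ATPase of the SWI/SNF chromatin remodeller, was at 23.9, 27.1 and 30.7 FPKM in H460 and 2.27, 2.25 and 2.32 FPKM in A549 (3.10 ± 0.10, adjusted p = 4.95e-08), while its paralog SMARCA2 did not pass the test (-0.10 ± 0.11, adjusted p = 0.422). MTAP (chr9:21802636-21937651), of the methionine salvage pathway, was at 5.09, 4.69 and 4.999 FPKM in H460 and 0.0435, 0.00937 and 0.0466 FPKM in A549, from 21 reads (2.52 ± 0.08). Its neighbours on chromosome 9, the cell cycle inhibitors CDKN2A and CDKN2B, were at most 0.328 and 0.118 FPKM in any library. CCND1, cyclin D1, was higher in A549 at 130.2, 125 and 117 FPKM against 32.04, 32.97 and 35.7 FPKM in H460 (-1.86 ± 0.09).

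The remaining 26 tested were not called. MYC, at 70.8, 75.9 and 94.6 FPKM in H460 and 39.4, 38.4 and 44.2 FPKM in A549, came closest (0.96), and passed the size required when A549 library 3 (1.02) or H460 library 1 (1.044) was left out. KEAP1, the inhibitor of NRF2, differed by 0.79, and NFE2L2, NRF2 itself, by 0.24 ± 0.18. The study describes KEAP1 as mutated and inactive in both lines, which its mRNA level does not measure. STK11, the kinase LKB1, did not pass the test, at 8.29, 9.51 and 9.48 FPKM in H460 and 9.17, 8.62 and 10.5 FPKM in A549 (-0.05 ± 0.10, adjusted p = 0.712). RB1 did not pass it either (-0.22 ± 0.19).

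**Figure D3:**
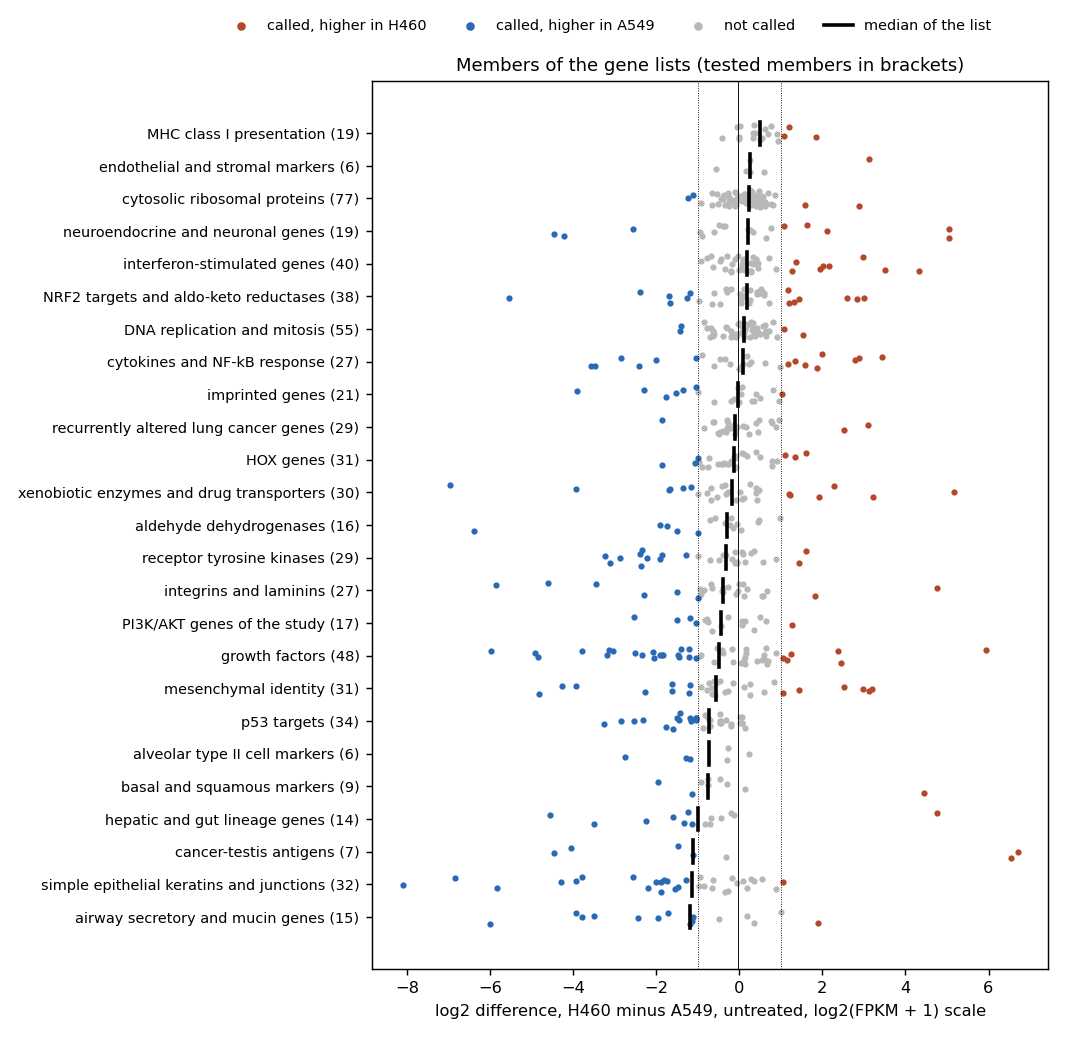
Log2 difference (H460 minus A549, untreated, x axis) of each tested member of 25 gene lists, with the list median as a black bar, called members in red (higher in H460) or blue (higher in A549), dotted lines at -1 and 1 and a thin line at the median of all genes. Epithelial, mucin and p53 target genes lie mainly to the left and MHC class I genes mainly to the right, and several lists have called members on both sides.

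Differences were uneven along the genome. Among the 10500 genes that averaged 1 FPKM or more, the median was -0.00. By chromosome it was lowest on 15 (-0.54, 327 genes), 8 (-0.49, 373 genes) and 11 (-0.26, 597 genes), and highest on 1 (0.23, 1058 genes) and X (0.22, 366 genes). Chromosome 19 held both directions. Its first 20 Mb had a median of 0.32 over 318 genes. There, 72.0% of genes had a difference above 0 at any size, while 25 were called toward H460 and 21 toward A549. The stretch from 30 to 50 Mb had a median of -0.73 over 262 genes, of which 91 (34.7%) were called higher in A549 and 3 higher in H460. CEACAM6, SPINT2, EHD2, AXL, CYP2S1, BAX, RPS16 and RPS19 lie in that stretch and SMARCA4, CYP4F11 and RPS28 in the first 20 Mb. On chromosome 1, the part from 150 to 250 Mb had a median of 0.44 over 435 genes and the first 120 Mb 0.11 over 589 genes.

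The ISP-I libraries, which share no sample with these, had the same 3 chromosomes lowest and the same 2 highest once the median of their own genes (-0.25) was subtracted. Chromosomes 15 and 8 stood at -0.60 and -0.54, 11 at -0.31, X at 0.26 and 1 at 0.23, and the stretch of chromosome 19 from 30 to 50 Mb at -0.67. The end of chromosome 19, from 50 to 60 Mb, stood at -0.30 untreated and at -0.01 with ISP-I. Chromosome 22 differed, at 0.15 untreated and -0.13 with ISP-I. Some neighbours among the genes averaging 1 FPKM or more, with lower genes between them left out, were called together: 8 on chromosome 7 were higher in A549 (CASD1, SGCE, PEG10, PPP1R9A, PON3, PON2, ASB4 and PDK4), including the imprinted pair SGCE and PEG10, whose annotated ends overlap. By the same count, a run of 7 on chromosome 8 from FGFR1 to SFRP1 was also higher in A549, and the run of 5 chemokines on chromosome 4 higher in H460.

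**Figure D4:**
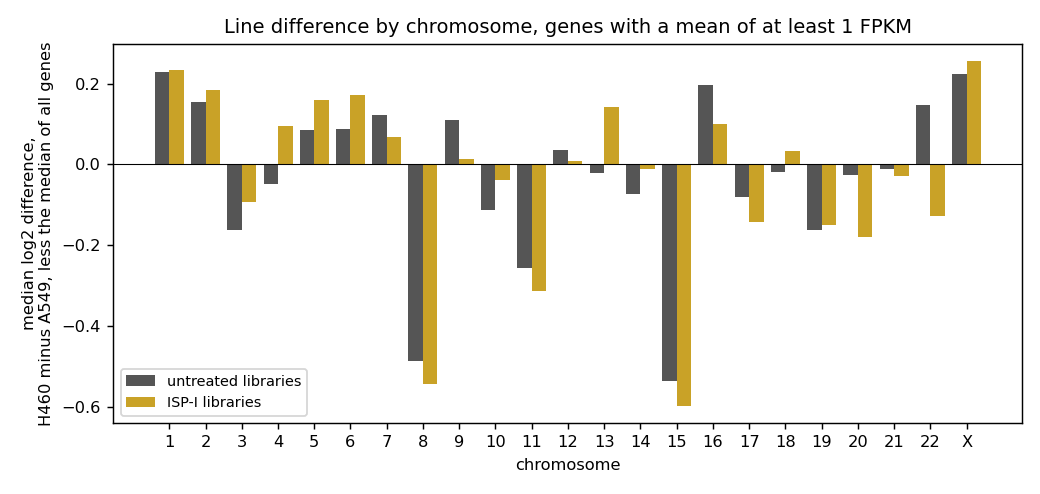
Median log2 difference (H460 minus A549) of the genes of each chromosome that averaged 1 FPKM or more, less the median of all such genes, in the untreated libraries (gray bars) and the ISP-I libraries (gold bars). Chromosomes 8 and 15 lie lowest in both sets, at -0.49 and -0.54 untreated.

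With ISP-I, 1069 of 13936 tested genes (7.67%) were called higher in H460 and 2232 (16%) higher in A549. That split depends on scaling: with median-of-ratios factors it was 1620 and 1510, and with quantile normalization 1495 and 1526. Of the 763 genes higher in untreated H460, 357 (46.8%, or 33.4% of the calls with ISP-I) were called so again, and of the 1188 higher in untreated A549, 857 (72.1%, or 38.4%). Called the opposite way were 5 and 11. The sign recurred for 661 of 753 and 1115 of 1186 of them that could be tested. These recurrence counts come from the fit without such scaling, where the median of all genes with ISP-I was -0.20, toward A549. The shares of 46.8% and 72.1% carry that shift and are not directly comparable. Over 13093 genes tested in both, the differences had a Pearson r of 0.68 and a Spearman rho of 0.58, across genes of libraries that share their lines and their processing.

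The next 4 genes kept their side. KRT7 had means of 2.35 and 614 FPKM in H460 and A549 with ISP-I, TBXT 58.2 and 0.0428 FPKM, MAGEB2 169.6 and 0.0278 FPKM and ALDH1A1 6.63 and 359.8 FPKM. CXCL8 had a wider gap with ISP-I, at 1755 and 5.26 FPKM (interaction 4.70 on the log2 scale, adjusted p = 3.89e-09). AREG, far lower in H460 untreated (a difference of -4.92), was at 40.03 and 30.02 FPKM with ISP-I (difference 0.39, interaction 5.31, adjusted p = 1.41e-09), and NEFL, 5.04 higher untreated, at 13.97 and 11.5 FPKM (difference 0.25, interaction -4.79, adjusted p = 1.82e-09). The gaps of AREG and NEFL were thus not called with ISP-I, while those of the other genes named here were.

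**Figure D5:**
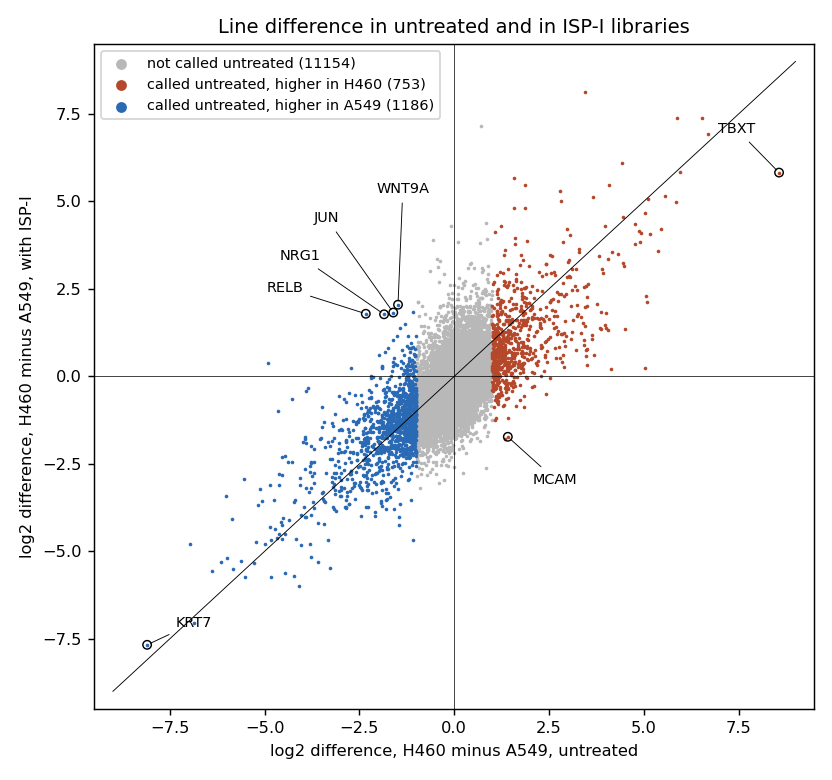
Log2 difference between the lines (H460 minus A549) in the untreated libraries (x axis) and in the ISP-I libraries (y axis) for 13093 genes, with genes called untreated in red (higher in H460) or blue (higher in A549). Most called genes lie on the same side in both, and the circled RELB, NRG1, JUN, WNT9A and MCAM lie on opposite sides.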

How the data were processed

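Libraries made from total RNA (TruSeq) were sequenced as paired-end reads. Reads were mapped to hg38 with HISAT2 and counted with HTSeq 0.9.1, per the labels and the methods of the study. The authors deposited FPKM per gene for each library, with gene length in a separate column. The annotation release and the strand setting are not given in the sources used here. After 4 broken lines were dropped, 19973 genes were kept. Every value was a whole multiple of the FPKM of 1 read (100% within a tolerance of 0.01), which gave reads per gene. ISP-I columns named a line and a treatment but no sample, so they were used as a group.

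Lines were compared with limma 3.58.1 (R 4.3.3, with an intensity trend) on log2(FPKM + 1), for genes averaging 0.1 FPKM or more, 3 libraries against 3. On counts simulated for this comparison (13528 genes tested), the fit called 171 of 200 genes changed 4-fold, with 0 false calls. The simulated libraries varied independently, with the same extra spread for every gene and none standing apart as A549 library 3 did. The 0 therefore does not give the rate of false calls in these data. XIST, Y-linked genes and some genes that the rule below names are not reported here. Named genes were, by rule, the 10 largest called differences per direction (mean of at least 5 FPKM, no overlap), up to 4 called and the 2 highest members of each of 26 gene lists, all PI3K/AKT and lung cancer genes listed, the 5 highest genes of each line, the 5 highest read in that line alone, and 5 genes called in opposite directions with ISP-I. Other list members that are named were chosen after their values were seen. The genes, lists and comparisons were chosen with earlier results of these data known. Positions are those of the deposited table (hg38). Alternatives were another pseudocount, filters, quantile and median-of-ratios scaling, voom on recovered reads, treat, a replicate block, all 12 libraries in 1 fit and leaving out each library.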

Additional observations from a re-analysis of the deposited data

Results flagged for a closer look

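The 5 genes below were called in opposite directions in untreated and ISP-I libraries and had the largest change of the line difference, tested as an interaction in limma over all 12 libraries. RELB, an NF-kB subunit, had means of 1.78 and 12.9 FPKM in untreated H460 and A549 and of 52.3 and 14.3 FPKM with ISP-I, an interaction of 4.12 on the log2 scale (adjusted p = 4.29e-09). NRG1, an ERBB receptor ligand, had 3.10 and 13.8 FPKM untreated and 25.6 and 6.69 FPKM with ISP-I (3.62, adjusted p = 1.71e-08). WNT9A, a Wnt ligand, went from 0.185 and 2.32 FPKM to 55.4 and 12.6 FPKM (3.53, adjusted p = 4.29e-09). JUN, a subunit of the AP-1 factor, went from 11.3 and 36.6 FPKM to 386.9 and 108 FPKM (3.43, adjusted p = 2.55e-09). MCAM, a cell adhesion molecule, went the other way, from 17.2 and 5.80 FPKM to 1.99 and 8.89 FPKM (-3.14, adjusted p = 4.29e-09). In all, 16 genes turned, 5 of those higher in untreated H460 and 11 of those higher in untreated A549.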

How the results depend on the processing

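Counts of calls rested on the log scale and on the size rule more than on the libraries. The counts higher in untreated H460 and A549, 763 and 1188 as reported, were 1363 and 2251 with a pseudocount of 0.1, 1478 and 2287 with limma voom on recovered reads, and 424 and 685 when limma treat tested against a fold change of 2. When each library in turn was left out, they ranged from 749 to 792 and 1167 to 1277. With ISP-I, the counts were 1806 and 3860 with a pseudocount of 0.1, 1620 higher in H460 with median-of-ratios factors and 2640 with voom. The genes that turned numbered 66 with a pseudocount of 0.1, against 16. Of the 119 named genes called, 17 lost the call under some alternative, and no named gene changed sign among called values. The deviations of same-numbered libraries had r of 0.40, -0.51 and -0.16, and a fit with the replicate block gave 763 and 1186. Deviations from the mean of 3 libraries are tied to one another, so these r values cannot settle whether replicate numbers pair the samples. The largest r across the lines was 0.62, between H460 library 2 and A549 library 3. Some libraries of different lines and numbers thus deviated together, and the cause was not tested. Depth limits genes with few or no reads in a line: their fitted differences depend on the pseudocount, and lower bounds were computed for genes with no read in a line and at least 1 FPKM in the other.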

Other observations

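The 4 genes of highest mean level were the same in both lines. The mitochondrial mRNA MT-CO1 had means of 10892 and 7949 FPKM in untreated H460 and A549, MT-CO3 8810.4 and 8337 FPKM and MT-CO2 7332 and 7194 FPKM, and FTL, the ferritin light chain, 6386 and 5435 FPKM, and none of the 4 was called. The next highest was MT-ND4 in H460, with 3151 and 2212 FPKM, and ACTG1 in A549. ACTG1, cytoplasmic gamma actin, was at 1468, 1733 and 1714 FPKM in H460 and 2465, 2500.4 and 3058 FPKM in A549, with a log2 difference of -0.70 that was not called.

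Of 21 tested imprinted genes, 6 were higher in A549 and 1, NAP1L5, higher in H460, with a median of -0.02. NLRP2 had no read in H460 and 13.9 FPKM in A549, and ZNF331 had means of 0.0542 and 4.18 FPKM. Both lie on chromosome 19 beyond the stretch from 30 to 50 Mb. Of 6 tested endothelial and stromal markers, COL3A1 alone was called, higher in H460, while PECAM1 was at 0.0116 and 0.0147 FPKM.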
